A study of Mus musculus with 12 samples.

Results

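The 9 genes described here build the photoreceptor (PR) outer segment or the matrix around it, and were chosen by name: Prph2, Rom1, Prom1, Cdhr1, Rp1, Rp1l1, Impg1, Impg2 and Fscn2. They were 9 of 54146 genes counted in RNA from whole mouse retina, and all 9 passed the filter on low counts that kept 18628 genes for testing. RNA from 12 mice was sequenced, with 1 library per mouse. The P30 control mice (1 to 3) had the source label Control_Crx, and the cKO mice, labelled Otx2 KO in photoreceptors, were taken at P32 (mice 4 to 6), P34 (7 to 9) and P38 (10 to 12), which was 2, 4 and 8 d after tamoxifen. The cKO mice carried a Crx-CreERT2 transgene, in which the promoter of the PR gene Crx drives a tamoxifen-dependent Cre, and Otx2 flox/flox alleles, and received tamoxifen at P30 in 1 intraperitoneal injection. All strains had a 129/SV background and mice of both sexes were used. The study's text places the P30 mice at 0 d after injection, while their labels give no day. Age, time after tamoxifen and deletion changed together between P30 and the other groups and cannot be told apart.

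An outer segment is a modified cilium, in which phototransduction takes place on stacked membrane discs. Discs form at the base by outgrowth of ciliary membrane, are closed and held at their rims by tetraspanins, are lined up along the axoneme, and are shed at the tip into the retinal pigmented epithelium (RPE). Around the outer segments, up to the RPE, lies the interphotoreceptor matrix, which is built around hyaluronan and the proteoglycans that bind it. OTX2 and CRX are homeodomain transcription factors of PRs.

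The members fall into 5 roles. Prph2 and Rom1 encode the partner tetraspanins of the disc rim, and Prom1 (prominin) and Cdhr1 (a PR cadherin) encode membrane proteins of the nascent discs at the outer segment base. Rp1 and Rp1l1 encode doublecortin-domain proteins of the PR axoneme, and Fscn2 encodes a PR fascin, which bundles actin. Impg1 and Impg2 encode the matrix proteoglycans SPACR and SPACRCAN. In the GRCm38 assembly the genes lie on 8 chromosomes, with only Cdhr1 (chromosome 14 from 37077857 to 37098347, minus strand) and Rp1l1 (chromosome 14 from 63992506 to 64035025, plus strand) on the same one. Prph2 lies on chromosome 17 from 46910459 to 46924933 (plus), Rom1 on chromosome 19 from 8927391 to 8929356 (minus), Prom1 on chromosome 5 from 43993620 to 44102032 (minus) and Fscn2 on chromosome 11 from 120361534 to 120368168 (plus). Rp1 lies on chromosome 1 from 3999557 to 4409241 (minus), Impg1 on chromosome 9 from 80313330 to 80465481 (minus) and Impg2 on chromosome 16 from 56204313 to 56273756 (plus). Prom1 was the only member with exonic bases (424) inside another annotated gene, Gm16401 on the opposite strand, which had 280 counts over all 12 mice.

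Promoter windows are shown for both matrix genes and both rim tetraspanins. Prph2 holds the letters TAATC and its partner Rom1 does not, while both matrix genes hold them. These letters were searched after the windows had been looked at. As the windows shown were picked by them, they do not tell how common a match is among the members. The windows are the 250 bases before the RefSeq start on GRCm38.p6, with the few bases that lie inside the GENCODE gene left out, and capitals mark TAATC or its reverse complement GATTA. The Prph2 window is chr17:46910228-46910458 (plus strand), that of Rom1 is chr19:8929357-8929606 (minus), that of Impg1 is chr9:80465482-80465688 (minus) and that of Impg2 is chr16:56204063-56204312 (plus).
Prph2: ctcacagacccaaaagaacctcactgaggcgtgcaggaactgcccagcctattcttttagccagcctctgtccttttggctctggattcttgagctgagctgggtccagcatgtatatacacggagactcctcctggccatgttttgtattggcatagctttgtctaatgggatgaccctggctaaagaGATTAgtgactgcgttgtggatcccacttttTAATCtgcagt
Rom1: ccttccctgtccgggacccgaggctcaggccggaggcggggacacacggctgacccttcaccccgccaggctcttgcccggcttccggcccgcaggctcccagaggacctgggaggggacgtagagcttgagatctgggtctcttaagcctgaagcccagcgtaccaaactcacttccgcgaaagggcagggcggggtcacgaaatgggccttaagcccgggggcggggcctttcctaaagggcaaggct
Impg1: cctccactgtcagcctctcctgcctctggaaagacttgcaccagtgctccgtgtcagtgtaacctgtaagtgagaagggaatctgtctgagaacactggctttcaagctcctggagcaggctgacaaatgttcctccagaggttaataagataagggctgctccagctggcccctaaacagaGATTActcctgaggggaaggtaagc
Impg2: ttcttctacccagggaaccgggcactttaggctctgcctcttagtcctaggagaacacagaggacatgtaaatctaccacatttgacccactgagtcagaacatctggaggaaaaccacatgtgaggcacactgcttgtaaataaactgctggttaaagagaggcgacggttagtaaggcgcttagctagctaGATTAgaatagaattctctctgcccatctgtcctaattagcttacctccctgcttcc

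RefSeq windows were held for 7 of the 9 members (all but Rp1 and Rp1l1), in 8 windows as Prom1 had 2. The core TAATCC, searched on both strands, was in 0 of the 8 windows and in 6.25% of all 32851 windows of the same length. After the windows had been looked at, the shorter TAATC, which every TAATCC contains, was searched as well and was in 19.8% of all windows, or in windows of 22.3% of genes. It was found in windows of 4 of the 7 members: 2 times each for Prph2 and Impg1 (1 of those of Impg1 lies in the bases left out above), and once each for Impg2 and Prom1. Rom1, Cdhr1 and Fscn2 had none. These matches are letters in a window and were not tested as binding sites.

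The deposited counts came to 29701483 to 60145034 per library, and the members together took 13280 to 22320 CPM (a gene's counts as parts of the whole library, scaled by TMM). Values are given in CPM, and all 12 mice entered 1 quasi-likelihood fit (edgeR), with p adjusted by Benjamini-Hochberg over the 18628 genes. To be called changed, a gene needed an adjusted p no higher than 0.05 and a difference of 0.5 or more on the log2 scale, in either direction. SE stands for the standard error of such a difference. Defining markers of rods were present in every mouse, and in RNA of whole retina fewer PRs and less RNA per PR cannot be told apart. The summed CPM of 7 lens markers was 453 to 33880 at P30, 642 to 37950 at P32, 238 to 661 at P34 and 4646 to 11830 at P38, and its part in the results was not tested. The targeted gene Otx2, counted over all its exons, had log2 fold changes of 0.14 (adjusted p = 0.703), 0.15 (0.684) and 0.17 (0.847) at P32, P34 and P38, and reads over its deleted exon were not analysed here. By Xist and Y-linked counts, all P30 mice were female, and mice 4, 7, 8, 10 and 11 were male, so P30 against each cKO age was partly a comparison of sexes.

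One library has to be set apart before the results. In P32 mouse 4, tested genes of at least 10 CPM with up to 2 kb of exons were higher than the P30 mean by a median of 0.64 on the log2 scale (929 genes), and those with over 7 kb had a median of -0.43 (3028 genes). In the other 11 mice these medians lay between -0.20 and 0.14 and between -0.11 and 0.15. Mouse 4 also had the highest share of reads with no unique position, 32.2% against 23.7 to 29.3% in the others. The division by length was made after the data were seen, and its part in the results below was not tested. Values without mouse 4 are given beside the comparisons of the P32 group.

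Levels per exon length put the disc rim first. In the P30 mice, FPKM (CPM per kb of merged exons) was 2032 ± 21 (SD, n = 3) for Prph2 and 1700 ± 29 for Rom1, which ranked 8 and 13 of the 18628 genes tested. Cdhr1 had 364 ± 11 FPKM, Rp1 176 ± 12, Prom1 116 ± 2.3, Impg1 112 ± 15 and Rp1l1 104 ± 7.5. Fscn2 (55.3 ± 3.9 FPKM, rank 536) and Impg2 (51.0 ± 7.2 FPKM, rank 597) were lowest. Neighbours in this order had separate P30 ranges except Prom1 and Impg1, Impg1 and Rp1l1, and Fscn2 and Impg2. The order of Prph2 over Rom1 held in 11 of 12 mice, with mouse 4 as the exception at 2071 against 2252 FPKM, and the next 3 steps down to Prom1 held in all 12.

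**Figure D1:**
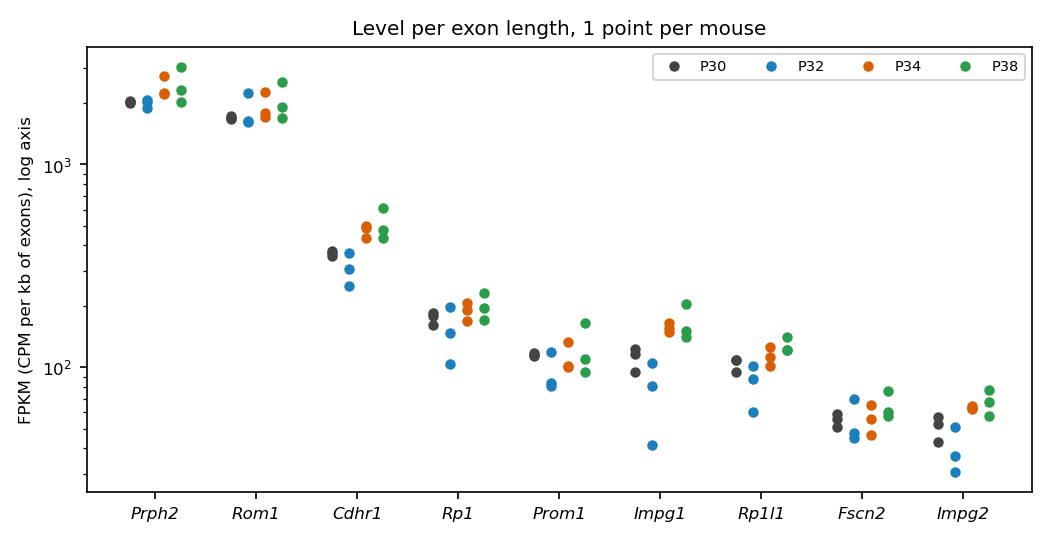
Level of each member per exon length. The vertical log axis gives FPKM (CPM per kb of merged exons), each point is 1 mouse and colors mark the 4 groups. Prph2 and Rom1 stand at or above 1625 FPKM in all 12 mice, and Fscn2 and Impg2 reach at most 77.2.

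In edgeR's fits with all mice and the filter on low counts, no member passed the threshold in any comparison. Against P30, 0 of 9 members were called by edgeR at P32, P34 or P38, where 0, 0.66 and 0% of all tested genes were called. DESeq2 as run here called 0 of 9 at each of the 3 ages as well, where it called 0.134, 1.98 and 0.242% of all genes. The study's own DESeq2 analysis, made with another version of the tool, lists Impg1 as upregulated at P38. At an unadjusted p of at most 0.05, without a limit on fold, none passed at P32, where 2.55% of all genes passed as higher and 3.09% as lower. Cdhr1 passed at P34 and Cdhr1 and Impg2 at P38, all higher, where 3.4 and 1.82% of all genes passed as higher. The signs differed between ages. At P32 the log2 fold change was negative in 8 of 9 members (median -0.24, against -0.01 over all genes tested, of which 48.5% were positive), at P34 it was positive in 8 of 9 (median 0.18, with 49.8% of all genes positive) and at P38 it was positive in 9 of 9 (median 0.27, with 48.2% of all genes positive). Without mouse 4, all 9 were negative at P32, with Impg1 at -0.27, Fscn2 at -0.25, Impg2 at -0.22, Prom1 at -0.19, Rp1l1 at -0.13, Cdhr1 at -0.12 and Rom1, Prph2 and Rp1 at -0.06 to -0.02. Without mouse 6, Impg1 was at -0.87, Impg2 at -0.60, Rp1l1 at -0.49, Prom1 at -0.49, Rp1 at -0.48 and Cdhr1 at -0.39 at P32, with adjusted p of 0.21 to 0.255. At P38 without mouse 10, Prom1 was negative (-0.17). The 3 ages share the P30 mice, so the 3 sets of signs are not independent. With the 9 cKO mice as 1 group, 8 of 9 members had a positive log2 fold change, against 52.7% of all genes, 0 of 9 members were called by edgeR (0.0537% of all genes) or DESeq2 (0.247%), and 0 passed as higher at an unadjusted p of at most 0.05 (0.467% of all genes). None of the 9 lay wholly above P30, against 0.123% of all genes.

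**Figure D2:**
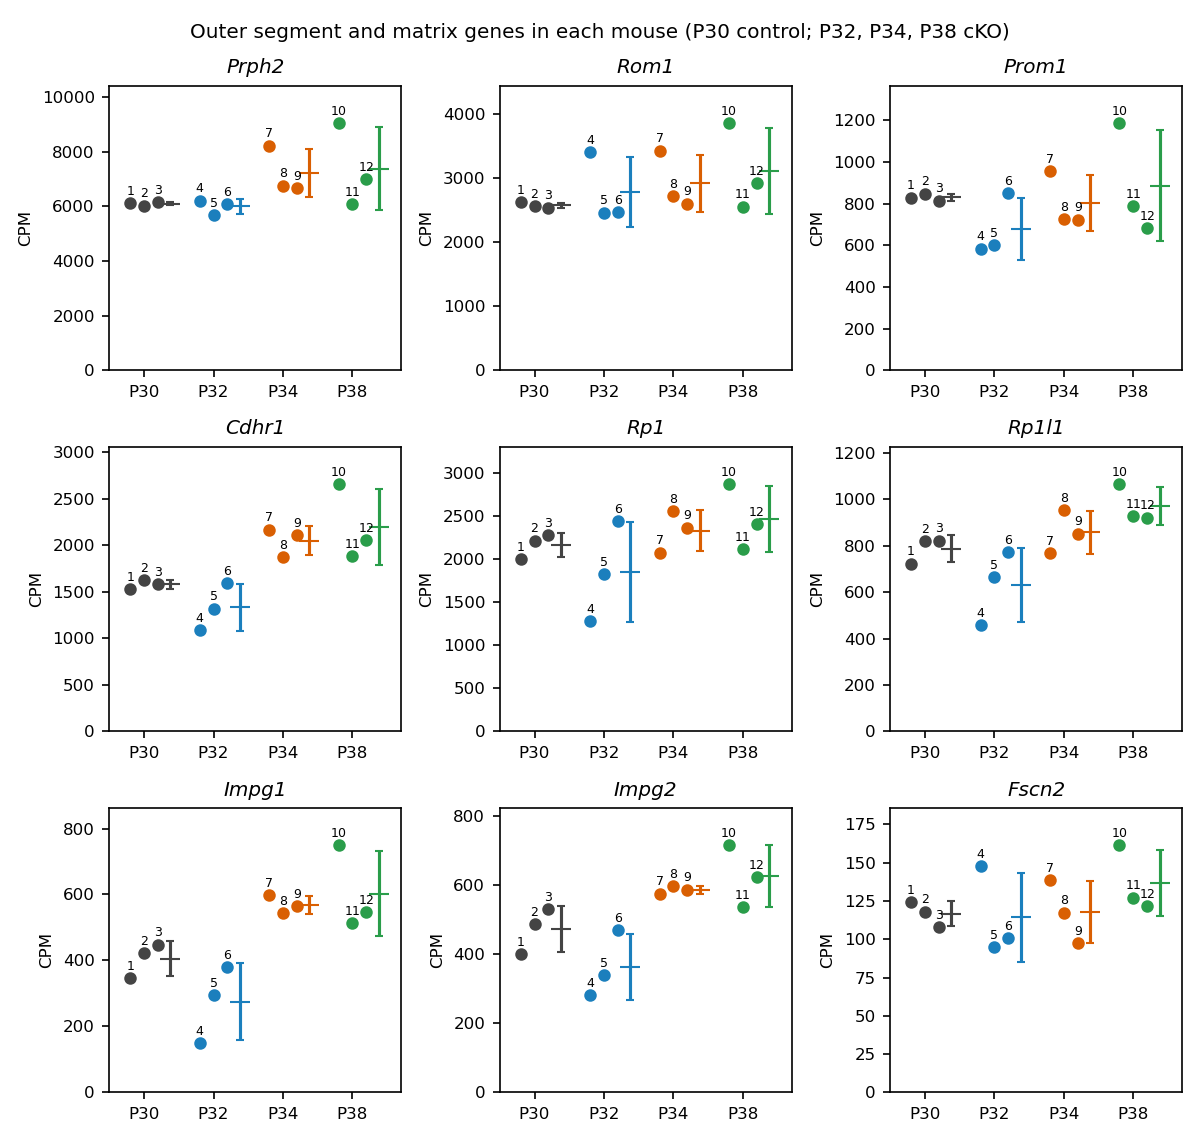
CPM of the 9 members in each mouse. Points are single mice with their numbers, and the bar beside each group is the mean with the SD of its 3 mice. P34 and P38 mice lie above all P30 mice for Cdhr1, Impg1 and Impg2, mouse 10 is highest in every panel, and mouse 4 is lowest in 6 panels but high for Rom1 and Fscn2.

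Of the matrix proteoglycans, Impg1 had the largest difference from P30 among the members at each age, without a call in the fits made here. Impg1 stood at 345, 423 and 448 (P30), 150, 294 and 380 (P32), 598, 544 and 565 (P34) and 749.7, 513 and 546 CPM (P38). Every P34 and P38 mouse thus lay above every P30 and P32 mouse, and P32 and P30 overlapped. The log2 fold change of Impg1 against P30 was -0.56 (SE 0.27, adjusted p = 0.698) at P32, 0.49 (SE 0.27, adjusted p = 0.552) at P34 and 0.57 (SE 0.27, adjusted p = 0.847) at P38. Its highest library stood 4.99-fold above its lowest, the widest range of the 9 members, and its SD within groups of 0.39 (log2 CPM) was above the median of 0.17 over 10364 genes of at least 10 CPM.

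Impg2, which is thought to anchor the matrix to the PR membrane, followed the same order of groups. It stood at 400.0, 487 and 531 (P30), 283, 340.3 and 470 (P32), 576, 598 and 587 (P34) and 716, 537 and 624 CPM (P38). All P34 and P38 mice again lay above all P30 mice, the lowest P38 mouse by 537 to 531 CPM, and P32 overlapped P30. The log2 fold change of Impg2 was -0.38 (SE 0.18) at P32, 0.31 (SE 0.18) at P34 and 0.40 (SE 0.18) at P38. The adjusted p values were 0.698, 0.581 and 0.847. Without P30 mouse 1, the log2 fold change of Impg2 at P34 was 0.21 (adjusted p = 0.935). The log2 ratio of Impg1 to Impg2, which is free of library scaling, was -0.25 to -0.20 in the 3 P30 mice, -0.91, -0.21 and -0.31 at P32 and -0.19 to 0.07 in the 6 P34 and P38 mice. The mean of the 9 cKO mice differed from that of the P30 mice by 0.03 (-0.20 ± 0.29 against -0.22 ± 0.02, SD, n = 9 and 3, exact two-sided permutation p = 0.868, 0.868 after adjustment over 3 ratios, smallest p possible 0.00455). Without mouse 4 that difference was 0.11 (exact permutation p = 0.164).

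Of the proteins of nascent discs, Cdhr1 separated the groups and Prom1 did not. Cdhr1 stood at 1529, 1628 and 1578 (P30), 1091, 1319 and 1591 (P32), 2166, 1874 and 2109 (P34) and 2656, 1879.7 and 2052 CPM (P38). The P34 and P38 mice lay above all P30 and P32 mice, while P32 overlapped P30. Its log2 fold change was -0.24 (SE 0.17) at P32, 0.38 (SE 0.17, adjusted p = 0.465) at P34 and 0.48 (SE 0.17, adjusted p = 0.847) at P38. Prom1 stood at 828.8, 847 and 814 (P30), 584, 599 and 851 (P32), 956, 727 and 724 (P34) and 1186, 786 and 682 CPM (P38). Each cKO age held mice above and below the P30 range of Prom1, whose log2 fold changes were -0.29, -0.05 and 0.09 (SE 0.21 each, adjusted p 0.698, 0.965 and 0.96). That of Prom1 was -0.20 at P34 without mouse 7 and -0.17 at P38 without mouse 10.

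The rim tetraspanins were steady at P30 and spread later. Prph2 stood at 6117, 6031 and 6152 (P30), 6216, 5681 and 6094 (P32), 8228, 6760 and 6655 (P34) and 9048, 6075 and 7007 CPM (P38). All 3 P34 mice lay above the P30 mice, and P32 and P38 overlapped them. The log2 fold change of Prph2 was -0.02, 0.24 and 0.27 (SE 0.17 each, adjusted p 0.968, 0.644 and 0.847), with 0.13 at P34 without mouse 7 and 0.11 at P38 without mouse 10. Rom1 stood at 2628, 2566 and 2542 (P30), 3416, 2466 and 2473 (P32), 3436, 2721 and 2608 (P34) and 3865, 2560 and 2924 CPM (P38). Each cKO age overlapped P30, and its log2 fold changes were 0.11, 0.18 and 0.27 (SE 0.19 each, adjusted p 0.842, 0.786 and 0.847), with 0.04 at P34 without mouse 7 and 0.10 at P38 without mouse 10. The log2 ratio of Rom1 to Prph2 was -0.86 in mouse 4 and -1.35 to -1.20 in the other 11 mice. It differed between the 9 cKO and 3 P30 mice by 0.02 (-1.23 ± 0.14 against -1.24 ± 0.03, exact two-sided permutation p = 0.855, adjusted 0.868), and by -0.03 without mouse 4 (exact permutation p = 0.382).

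The axonemal genes and Fscn2 overlapped P30 at P32 and P34. Rp1, whose mutations cause retinitis pigmentosa, stood at 2002, 2217 and 2277 (P30), 1281, 1824 and 2444 (P32), 2076, 2557 and 2367 (P34) and 2874, 2117 and 2405 CPM (P38). Its log2 fold changes were -0.23, 0.11 and 0.19 (SE 0.21 each, adjusted p 0.727, 0.907 and 0.902). With 1 mouse left out, that of Rp1 ran from 0.04 (without mouse 8) to 0.18 (without mouse 7) at P34, with 0.05 without P30 mouse 1, and from 0.07 (without mouse 10) to 0.29 (without mouse 11) at P38. Rp1l1, its paralog, stood at 723, 821 and 821 (P30), 459, 665 and 774 (P32), 769, 954 and 852 (P34) and 1066, 927 and 921 CPM (P38). All P38 mice lay above the P30 mice for Rp1l1, and its log2 fold changes were -0.32, 0.12 and 0.30 (SE 0.17 each, adjusted p 0.698, 0.859 and 0.847), with 0.04 without mouse 8, 0.19 without mouse 7 and 0.06 without P30 mouse 1 at P34. The log2 ratio of Rp1l1 to Rp1 differed by 0.02 between cKO and P30 mice (-1.44 ± 0.12 against -1.46 ± 0.02, SD, exact two-sided permutation p = 0.605, adjusted 0.868). Fscn2 stood at 124, 118 and 108 (P30), 148, 94.8 and 101 (P32), 139, 117 and 97.6 (P34) and 161, 127 and 122 CPM (P38). At each age it overlapped P30, with log2 fold changes of -0.03, 0.01 and 0.23 (SE 0.18 each, adjusted p 0.965, 0.989 and 0.857) and 0.10 at P38 without mouse 10.

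Groups that do not overlap can be read against the whole transcriptome. At P34, 4 of 9 members (Prph2, Cdhr1, Impg1 and Impg2) lay wholly above P30, against 10.4% of all tested genes. At P38, 4 of 9 (Cdhr1, Rp1l1, Impg1 and Impg2) did so, against 8.23%. At P32 none lay wholly above or below P30, against 5.26% above and 4.39% below.

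**Figure D3:**
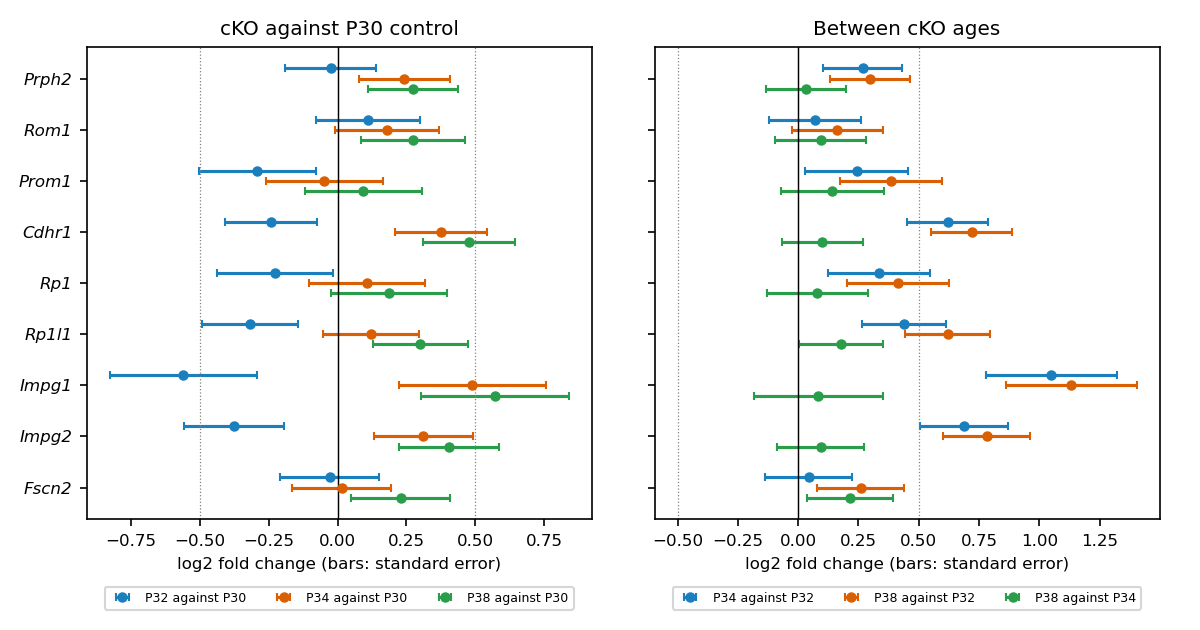
log2 fold changes of the 9 members with their standard errors (horizontal axis), against the P30 mice (left) and between cKO ages (right). Dotted lines mark 0.5 in size. Impg1 runs from -0.56 at P32 to 0.57 at P38 on the left and exceeds 1 against P32 on the right, where no member passed the adjusted threshold in edgeR's fit of all 12 mice.

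The wider median differences were from P32 to the 2 later cKO ages, where all groups had received tamoxifen. From P34 to P38 the median was 0.09. Rom1 differed less from P32 (0.07 at P34 and 0.16 at P38) than from P30 (0.18 and 0.27). From P32 to P34, 9 of 9 members had a positive log2 fold change (median 0.34, with 47.8% of all genes positive), and 0 of 9 were called by edgeR, where 0.242% of all genes were called. Impg1 was 1.05 higher on the log2 scale (SE 0.27, adjusted p = 0.0948), Impg2 0.69 (SE 0.18, adjusted p = 0.0948), Cdhr1 0.62 (SE 0.17, adjusted p = 0.0949) and Rp1l1 0.44 (SE 0.17, adjusted p = 0.141). These 4 passed an unadjusted p of at most 0.05 as higher, where 13.5% of all genes did. Prph2, Cdhr1, Impg1 and Impg2 at P34 lay wholly above P32, against 14.8% of all genes. From P32 to P38, 9 of 9 were positive again (median 0.41, with 47.7% of all genes positive), and 0 of 9 were called by edgeR, which called 0% of all genes. Impg1 was 1.13 higher (SE 0.27, adjusted p = 0.114), Impg2 0.78 (SE 0.18, 0.114), Cdhr1 0.72 (SE 0.17, 0.114) and Rp1l1 0.62 (SE 0.17, 0.116). These 4 lay wholly above P32, against 13.3% of all genes, and they were the 4 past an unadjusted p of at most 0.05, where 12.3% of all genes passed as higher.

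Whether these genes were called depended on the tool, the filter and single P32 mice. Without a filter on low counts, edgeR called Impg1 and Impg2 from P32 to P34 (adjusted p 0.0192 and 0.0387, with 0.68% of all genes called as higher) and from P32 to P38 (0.0282 and 0.0411, with 0.35%). DESeq2 called Impg1, Impg2 and Cdhr1 from P32 to P34 (adjusted p 0.00496, 0.00763 and 0.00593), where it called 3.11% of all genes as higher, and these 3 and Rp1l1 from P32 to P38 (adjusted p 0.00302 to 0.0138), where it called 2.8%. Without P32 mouse 6, which of the P32 mice had the most Impg1, Impg2, Cdhr1, Rp1l1 and Rp1, edgeR called Impg1 (1.36), Impg2 (0.91), Cdhr1 (0.77) and Rp1l1 (0.61) from P32 to P34 at adjusted p of 0.0141 to 0.0339, where it called 7.43% of all genes as higher. Without that mouse, the same 4 and Rp1 (0.67, adjusted p = 0.044) were called from P32 to P38, where it called 6.52% of all genes. Without mouse 4, the log2 fold change from P32 to P34 was 0.75 for Impg1 (adjusted p = 0.223), 0.53 for Impg2 (0.236), 0.49 for Cdhr1 (0.238) and 0.25 for Rp1l1 (0.38), that from P32 to P38 was 0.84 for Impg1 (0.239), 0.63 for Impg2 (0.256), 0.59 for Cdhr1 (0.256) and 0.43 for Rp1l1 (0.265), and none of the 9 was called. The P32 mice spread widely for these genes, with Impg1 at 150 CPM in mouse 4 and 380.0 CPM in mouse 6.

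Between P34 and P38 the members differed by 0.03 to 0.21 on the log2 scale, all positive (median 0.09), where 49.3% of all genes were positive. Of the 9, 0 were called by edgeR (0.199% of all genes) or DESeq2 (0.773%), 0 passed as higher at an unadjusted p of at most 0.05 (3.5% of all genes) and 0 lay wholly above P34 (5.36%). Mouse 10 had the highest CPM of the 12 mice for each of the 9 members. Without it, the P38 to P34 differences turned negative for 7 members, from -0.01 for Impg2 to -0.14 for Prph2, and the values of Rp1l1 and Fscn2 stayed positive. Against P30 and without mouse 10, Cdhr1 at P38 was 0.33 higher (SE 0.16), Impg1 0.39 (SE 0.28) and Impg2 0.31 (SE 0.19), each with an adjusted p of 0.915.

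The 12 libraries sorted the members into different orders, and exon length ran beside that order in mouse 4. Against the P30 mean, the 2 shortest members were higher in mouse 4, Rom1 (1517 exonic bases) by 0.41 and Fscn2 (2110 bases) by 0.34 on the log2 scale, and Prph2 (3002 bases) was at 0.03. The 6 longer members, of 3630 to 12311 bases, were at -0.51 (Prom1) to -1.42 (Impg1). All 6 lay below the over 7 kb median of -0.43 for that library. Impg1, with 3630 bases, was also lower than the 4 members longer than 7 kb, while the 2912 genes with 3 to 5 kb of exons had a median of 0.035 in mouse 4. In P32 mouse 5 all 9 members were below the P30 mean, by 0.06 for Rom1 to 0.47 for Prom1, and in mouse 6 they lay between -0.21 for Fscn2 and 0.18 for Rp1.

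**Figure D4:**
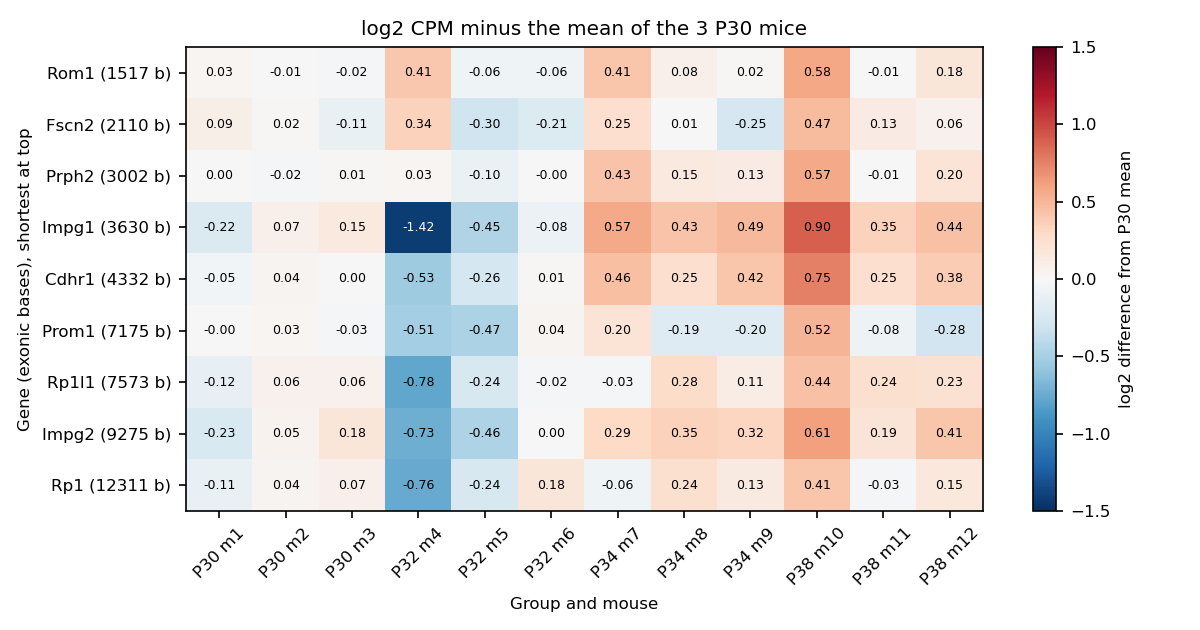
log2 CPM of each member in each mouse minus the mean of the 3 P30 mice, as the color and the printed number. Rows run from the shortest member (Rom1, 1517 exonic bases) to the longest (Rp1, 12311), and columns are mice by group (m, mouse number). The column of P32 mouse 4 runs from 0.41 at the top to -0.76 at the bottom with Impg1 lowest at -1.42, and the column of P38 mouse 10 is positive for all 9.

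Summed rod markers were lower at P32 and higher at P34 and P38 than at P30, without a call. The 8 rod markers summed to 63400 to 69710 CPM at P30, 57260 to 62580 at P32, 71920 to 95860 at P34 and 70400 to 106100 at P38, so that P34 and P38 lay above P30 and P32 below it. Of the 8, each had a positive log2 fold change at P34 and at P38 (medians 0.18 and 0.30), and 0 were called by edgeR or passed an unadjusted p of at most 0.05, which 3.4% (P34) and 1.82% (P38) of all genes passed as higher. The 7 ganglion cell markers were also positive, 7 of 7 at P34 (median 0.46) and 7 of 7 at P38 (median 0.25), of which 0 were called and 6 and 2 passed that unadjusted p as higher, against the same 3.4 and 1.82% of all genes. Their summed CPM was 899 to 1275 at P30, 985 to 1157 at P32, 1215 to 1732 at P34 and 1271 to 1538 at P38. From P32 to P34, 4 of the 8 rod markers and 6 of the 7 ganglion cell markers passed that unadjusted p as higher. None of either list passed as lower or was called, and 13.5% of all genes passed as higher. The part of either cell type in the results was not tested. When libraries were scaled to equal rod marker levels, the median of all genes shifted to 0.15, -0.21 and -0.26 at P32, P34 and P38. On that scale Impg1 was 0.28 higher at P34 (SE 0.24) and at P38 (SE 0.24), Cdhr1 0.17 and 0.19 (SE 0.15 each) and Impg2 0.11 and 0.13 (SE 0.18 each), while Rom1, Rp1, Fscn2 and Prom1 were negative at both ages, Prph2 was at 0.03 and -0.01, and Rp1l1 at -0.08 and 0.04. With sex in the model, Cdhr1 was 0.45 higher at P34 (SE 0.20, adjusted p = 0.362), Impg1 0.69 (SE 0.31, 0.372) and Impg2 0.43 (SE 0.21, 0.4). At P38 the values in that model were 0.55 for Cdhr1 (SE 0.20), 0.78 for Impg1 (SE 0.31) and 0.52 for Impg2 (SE 0.21), each with an adjusted p of 0.503. The sign of Fscn2 (-0.27) and Rom1 (-0.01) at P34 and of Prom1 (-0.02) and Fscn2 (-0.05) at P38 turned negative with sex in the model. The females 9 (P34) and 12 (P38) had 2109 and 2052 CPM of Cdhr1 and 565 and 546 CPM of Impg1, above the 3 P30 females, which had up to 1628 and 448 CPM. For Prom1 they had 724 and 682 CPM, below the 814 to 847 CPM of the P30 females, and for Fscn2 97.6 CPM, below the P30 range of 108 to 124, and 122 CPM, within it.

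The members were set beside 3 lists of other genes of the same structures. At P34, 49.8% of all tested genes were positive, 0.66% were called by edgeR, and 3.4% passed an unadjusted p of at most 0.05 as higher and 7.06% as lower. The list of outer segment disc membrane genes had 12, with 12 positive at P34, 0 called by edgeR and 1 past an unadjusted p of at most 0.05, as higher (median 0.23). Some of its genes, such as Cnga1, are also among the rod markers. Among them Gucy2f, a PR guanylate cyclase, was at 0.42 (SE 0.47) and Slc24a1, the rod sodium-calcium-potassium exchanger, at 0.40 (SE 0.19), while the channel subunit gene Cnga1 was at 0.03 and the disc protein gene Prcd at 0.04. The list of connecting cilium, axoneme and calyceal process genes had 23, with 15 positive at P34, 0 called by edgeR and 0 past an unadjusted p of at most 0.05 (median 0.03). Crb1, a polarity gene, was at 0.24, Myo7a, which encodes an unconventional myosin, at -0.33 (SE 1.02), and Ush1c, which encodes the scaffold protein harmonin, at -0.61 (SE 0.35). At P32 and P38 none of the genes of either list was called. At an unadjusted p of at most 0.05, 0 genes of the disc list passed at P32 and 4 at P38 (all higher, against 1.82% of all genes), and 2 of the cilium list at P32 (both lower, against 3.09% of all genes) and 0 at P38.

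The list of matrix and extracellular genes had 12, of which 7 were positive and 2 were called lower and 0 higher at P34 (median 0.06). At an unadjusted p of at most 0.05, 2 passed as higher and 3 as lower at P34. At P32, 0 passed as higher and 2 as lower, against 2.55 and 3.09% of all genes, and at P38 2 passed as higher and 2 as lower, against 1.82 and 3.82%, with 0 called at either age. Vcan encodes versican, a hyaluronan-binding proteoglycan. It stood at 17.9, 22.4 and 26.7 (P30), 12.2, 18.2 and 12.0 (P32), 2.93, 2.92 and 2.34 (P34) and 16.9, 22.1 and 15.3 CPM (P38). The P34 mice lay below all others, and Vcan fell by 3.03 on the log2 scale against P30 (SE 0.23, adjusted p = 0.000171) and rose by 2.73 from P34 to P38 (SE 0.23, adjusted p = 0.000786). Efemp1 encodes fibulin-3, an extracellular matrix glycoprotein. It had 71.6, 78.2 and 61.2 CPM at P30 and 38.4, 37.1 and 35.3 CPM at P34, and fell by 0.93 (SE 0.13, adjusted p = 0.00571). The summed CPM of 5 ciliary margin markers was 189 to 216 at P30, 121 to 232 at P32, 49.0 to 55.2 at P34 and 111 to 159 at P38, and its part in the values of Vcan and Efemp1 was not tested. Rbp3, the retinoid-binding protein that PRs secrete into the matrix, was at 0.49 (SE 0.22, adjusted p = 0.477) at P34, and Hapln1, a link protein, at 0.72 (SE 0.25, adjusted p = 0.339). Hapln1 was low, at 2.07, 2.04 and 3.30 CPM at P30 and 4.50, 3.28 and 4.40 CPM at P34, and these ranges overlapped. Within this list the proteoglycan genes thus had values of opposite sign at P34, Vcan lower with the called change, and Impg1 and Impg2 at 0.49 and 0.31 without a call.

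The genes whose log2 CPM over the 12 mice was most like the mean standardized pattern of the members were Stx3 (Pearson r = 0.974), Ano2 (0.971), Cse1l (0.97), Rrm1 (0.97) and Arhgap11a (0.968). Stx3 encodes a syntaxin of PRs and Ano2 a calcium-activated chloride channel. None of the 5 is in a list used here, and their mean levels ran from 1.92 CPM (Arhgap11a) to 839 CPM (Stx3). The 12 points share 4 groups and the scaling of their libraries, and these correlations are given as descriptions. Between members, r was 0.968 for Impg1 and Impg2, 0.954 for Impg1 and Cdhr1, 0.943 for Rp1 and Rp1l1 and 0.870 for Rom1 and Fscn2, and -0.06 for Rom1 and Rp1. The lowest mean pattern was that of mouse 4 (-1.23 SD units), followed by mouse 5 (-1.11), and the highest that of mouse 10 (1.71).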

How the data were processed

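RNA of whole retina, including RPE, from 12 mice was analyzed. The authors made stranded, poly(A)-selected libraries and read 50 bp from 1 end. Their alignment used STAR 2.5.3a on mm10, and their counting per gene used HTSeq 0.6.1p1 (union mode, Ensembl 93). They deposited raw counts per gene, without normalization. The strand option is not given in the sources used here. Reads with several positions were not counted.

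CPM (TMM), FPKM and tests were computed with edgeR 4.0.16 in R 4.3.3. log2 CPM used a prior count of 2. The 9 cKO mice were also compared with P30 in a fit of their own. Groups were taken from the labels, and the mice of a group are separate animals. Names, positions and exon lengths came from GENCODE M21 (99.9% of genes named) and promoters from RefSeq. The fitting procedure was tested on simulated data. No libraries shared counts: chi-square per degree of freedom was 19.7 to 254 within groups. At these depths 3 counts were 0.0499 to 0.101 CPM, which covers counting error only. The members, lists and rule for named genes (every member, called list genes or the extremes of a list at P34, the 5 genes most alike, Otx2) were chosen with earlier results of these data known. Alternatives were other scalings, no filter, DESeq2 1.42.0, fits of the conditions compared, sex as a covariate, other thresholds and leaving out each mouse. Values of 1 gene that the rule for named genes would give are not reported here.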

Additional observations from a re-analysis of the deposited data

How the results depend on the processing

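Of 864 alternative values of the 63 log2 fold changes of members, 772 kept their sign and side of the threshold, 20 newly passed it and 72 turned sign. Of those 72, 25 came with scaling to 8 rod genes and 7 with library totals only, which shift all genes: the median of all genes was -0.38 (P34 against P32) and -0.43 (P38 against P32) with the first and -0.11 and -0.14 with the second, against -0.02 in both comparisons as reported. Relative to the median of all genes, 1 of the 25 and 0 of the 7 turned sign. Members called from P32 to P34 numbered 0 by edgeR, 3 by DESeq2, 2 without a filter on low counts, 3 at an unadjusted p with the limit on fold kept, and 0 to 4 when a mouse was left out. From P32 to P38 they numbered 0, 4, 2, 4 and 0 to 5. The 4 and 5 came without P32 mouse 6. In the other comparisons 0 were called under every alternative run. No paired analysis was possible because the groups share no replicate numbers. Each member had 2883 counts or more in each library, so depth limits these values less than the spread between 3 mice.

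With library totals only, the log2 fold changes that turned sign were Prph2 at 0.00631 (P32 against P30), Fscn2 at -0.0469 (P34 against P30), Prom1 at -0.00854 (P38 against P30), Rom1 at -0.0195 and Fscn2 at -0.0453 (P34 against P32), Prph2 at -0.00673 (P38 against P34) and Rp1 at -0.00731 (all cKO against P30). Scaled to 8 rod genes, the log2 fold changes that turned sign were Prph2 at 0.13 and Fscn2 at 0.13 (P32 against P30), Rom1 at -0.0384, Rp1 at -0.0931, Rp1l1 at -0.0804 and Fscn2 at -0.21 (P34 against P30), Prph2 at -0.00990, Rom1 at -0.0127, Prom1 at -0.21, Rp1 at -0.0887 and Fscn2 at -0.0447 (P38 against P30), Prph2 at -0.10, Rom1 at -0.30, Prom1 at -0.12, Rp1 at -0.0126 and Fscn2 at -0.33 (P34 against P32), Prph2 at -0.0366 (P38 against P34), Prph2 at -0.14, Rom1 at -0.28, Prom1 at -0.0608, Rp1 at -0.00830 and Fscn2 at -0.17 (P38 against P32) and Rp1 at -0.0874, Rp1l1 at -0.0681 and Fscn2 at -0.0360 (all cKO against P30). With only the conditions compared in the fit, the log2 fold changes that turned sign were Prph2 at 0.00509 and Fscn2 at 0.00512 (P32 against P30) and Fscn2 at -0.00183 (P34 against P30). With sex as a covariate, the log2 fold changes that turned sign were Rom1 at -0.0116 and Fscn2 at -0.27 (P34 against P30), Prom1 at -0.0159 and Fscn2 at -0.0467 (P38 against P30), Rom1 at -0.0139 and Fscn2 at -0.0794 (P34 against P32) and Fscn2 at -0.17 (all cKO against P30). With each mouse left out in turn, those that turned sign ran as Prph2 from -0.0508 to 0.0136, Rom1 from -0.0622 to 0.19 and Fscn2 from -0.25 to 0.0902 (P32 against P30), Prom1 from -0.20 to 0.0175 and Fscn2 from -0.13 to 0.12 (P34 against P30), Prom1 from -0.17 to 0.25 (P38 against P30), Rom1 from -0.0678 to 0.24 and Fscn2 from -0.0941 to 0.27 (P34 against P32), Prph2 from -0.14 to 0.15, Rom1 from -0.0907 to 0.23, Prom1 from -0.13 to 0.30, Cdhr1 from -0.0589 to 0.20, Rp1 from -0.0437 to 0.18, Impg1 from -0.10 to 0.19 and Impg2 from -0.0141 to 0.19 (P38 against P34), Rom1 from -0.0200 to 0.34 (P38 against P32) and Rp1 from -0.0295 to 0.10 and Rp1l1 from -0.00540 to 0.13 (all cKO against P30). The differences of log2 ratios between cKO and P30 mice then ran from -0.00723 to 0.11 for Impg1 to Impg2, from -0.0282 to 0.0328 for Rom1 to Prph2 and from -0.00993 to 0.0485 for Rp1l1 to Rp1. The cause of these changes of sign was not tested.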
